A study of Mus musculus with 7 samples.

Results

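The genes described here are 48 components and targets of the transforming growth factor beta (TGF-beta), Nodal, activin and bone morphogenetic protein (BMP) pathway, out of 21887 protein-coding genes of the mouse. They were taken from a list by role, namely 11 ligands, 11 receptors and co-receptors, 6 Smads that carry the signal, 2 inhibitory Smads, 8 antagonists outside the cell or at its membrane, 5 regulators inside the cell, the Smad partner Foxh1 and 4 Id target genes. Every symbol was found in the gene table. A gene counted as having a peak when a peak of one of the authors' lists lay in its body or within 10 kb of it.

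The peaks come from chromatin immunoprecipitation followed by sequencing (ChIP-seq) in parental mouse embryonic stem cells (ESCs) and in the same line on the way to mesoderm. Oct1 (gene Pou2f1), a widely expressed POU-domain transcription factor, was profiled in undifferentiated ESCs and at day 3 and day 6 of differentiation. Oct4 (gene Pou5f1), its relative in pluripotent cells, was profiled in undifferentiated ESCs. The series title ties Oct1 to Smad factors in mesoderm formation, which is the question that peaks at Smad pathway genes bear on. Per the labels' protocols, differentiation ran through 2 days with Bmp4 and then 4 days with Rspo3 and LDN-193189, a blocker of BMP type I receptors. Products of the genes below were thus themselves supplied or inhibited in the medium, and the day 3 and day 6 samples were both taken after the switch to the inhibitor. Each of the 4 groups had 1 library, so no difference between lists could be set against a replicate error, and no test was made. The 3 inputs were not analysed here. Peak lists carry no expression values, so the labelled cell type could not be checked against marker transcripts.

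In this pathway a secreted ligand brings together type II and type I receptors, and the type I receptor phosphorylates a receptor-regulated Smad. Nodal, activin and TGF-beta signal through Smad2 and Smad3, BMPs through Smad1, Smad5 and Smad9, and both sets enter the nucleus with the shared partner Smad4. Nodal and BMP signals pattern the early embryo and direct pluripotent cells towards mesoderm, and their range is limited by secreted antagonists and by feedback inhibitors such as Smad6, Smad7 and the Lefty proteins.

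The 2 ESC lists and the day 6 list differed most in where their peaks lay at these genes. In ESCs, Oct1 and Oct4 peaks lay mostly away from start sites, and 6 members had 3 or more Oct1 peaks (12.5%, against 7.95% of all coding genes). The median distance was 18859 bp (Oct1) and 18642 bp (Oct4) from the nearest start site or, where no start is in the table, gene end. The long genes Smad3, Bmp7 and Ski hold many of these peaks, and without them the medians were 9155 bp and 10868 bp. At day 6, Oct1 peaks lay mostly at start sites, at a median of 317 bp. The day 6 list is shorter than the ESC Oct1 list (7758 peaks against 17709). With lists of equal length, 13 ESC Oct1 peaks stood at 12 members and 21 day 6 peaks at 19. Most of these members then had a single peak in either list. An Oct1 peak stood within 1 kb of the start, or of a gene end where no start is in the table, at 27 of the 48 genes at day 6 (56.2%, against 30.7% of all coding genes) and at 4 in ESCs (8.33%, against 7.13%). Among the receptors it was 8 of 11 at day 6 and none in ESCs. With the higher-scored 50% of each list, 14 members had a start-site peak at day 6 (17.9% of all coding genes did) and 4 in ESCs (5.53%). With lists of equal length, 16 had one at day 6 (22.1%) and 2 in ESCs (4.07%). The whole lists differed in the same way, since 78% of all day 6 peaks and 8.26% of all ESC Oct1 peaks lay within 1 kb of a start site of some gene (or a gene end, where the table gives no start).

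The start regions of 6 members are printed as examples, 5 of them under a day 6 Oct1 peak and Nodal, the Smad2 and Smad3 ligand of the early embryo, under none. Each runs 5′ to 3′ on the gene's own strand from 250 bases before the RefSeq start site to the first 20 bases from it (RefSeq, GRCm38.p6). Capitals mark matches to the motifs searched, which are named further below. In these stretches only the GC-rich Smad element GGCGCC and the Smad palindrome GTCTAGAC matched. The regions are Tgfbr1 at chr4:47352972-47353241 (plus strand), Acvr2b at chr9:119401928-119402197 (plus), Smurf2 at chr11:106920696-106920965 (minus), Smad6 at chr9:64022040-64022309 (minus), Id3 at chr4:136143572-136143841 (plus) and Nodal at chr10:61417722-61417991 (plus).
Tgfbr1: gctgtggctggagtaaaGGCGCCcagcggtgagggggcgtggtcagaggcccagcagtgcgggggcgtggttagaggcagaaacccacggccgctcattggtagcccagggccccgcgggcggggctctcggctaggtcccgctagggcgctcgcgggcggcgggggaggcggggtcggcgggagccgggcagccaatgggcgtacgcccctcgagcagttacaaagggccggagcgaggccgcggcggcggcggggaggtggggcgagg
Acvr2b: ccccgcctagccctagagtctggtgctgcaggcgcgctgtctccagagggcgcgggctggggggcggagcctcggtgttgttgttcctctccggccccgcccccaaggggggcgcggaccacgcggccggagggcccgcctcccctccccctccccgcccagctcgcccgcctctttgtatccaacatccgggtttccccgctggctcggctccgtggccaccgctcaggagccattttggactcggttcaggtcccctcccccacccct
Smurf2: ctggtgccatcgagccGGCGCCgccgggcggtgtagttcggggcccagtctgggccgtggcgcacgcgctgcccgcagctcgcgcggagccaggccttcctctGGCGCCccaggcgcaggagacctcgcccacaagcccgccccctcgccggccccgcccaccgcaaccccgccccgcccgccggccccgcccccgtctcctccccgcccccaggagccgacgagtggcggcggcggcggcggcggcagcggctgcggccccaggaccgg
Smad6: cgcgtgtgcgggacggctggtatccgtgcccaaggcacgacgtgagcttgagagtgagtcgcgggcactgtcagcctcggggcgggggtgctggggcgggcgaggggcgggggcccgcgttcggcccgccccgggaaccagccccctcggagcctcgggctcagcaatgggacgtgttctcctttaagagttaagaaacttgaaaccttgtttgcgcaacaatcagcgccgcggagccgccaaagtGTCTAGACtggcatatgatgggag
Id3: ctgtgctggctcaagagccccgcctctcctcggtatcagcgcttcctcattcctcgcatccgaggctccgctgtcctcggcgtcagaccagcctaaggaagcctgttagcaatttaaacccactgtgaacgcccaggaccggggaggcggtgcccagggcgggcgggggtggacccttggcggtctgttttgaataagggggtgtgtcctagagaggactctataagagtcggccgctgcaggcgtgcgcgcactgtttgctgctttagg
Nodal: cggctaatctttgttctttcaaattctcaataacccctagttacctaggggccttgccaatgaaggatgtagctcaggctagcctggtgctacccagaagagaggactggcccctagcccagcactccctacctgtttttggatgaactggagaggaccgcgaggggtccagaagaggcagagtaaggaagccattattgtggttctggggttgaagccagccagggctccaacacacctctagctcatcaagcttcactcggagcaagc

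The windows of Tgfbr1, Acvr2b, Smurf2, Smad6 and Id3 were rich in G and C, at 74.8%, 72.8%, 82%, 66.8% and 62.8% of the 250 bases before the start. The Nodal window held 53.2%, close to the median of 52.4% over all 32851 start windows of the table. Over the 23 member windows under no day 6 peak the values ran from 38% to 87.6%, and over the 18 under one from 58.8% to 85.6%. The windows of Tgfbr1, Acvr2b, Smurf2 and Id3 also lay under a day 3 Oct1 peak. Smurf2 held the GC-rich element at 2 places and Tgfbr1 at 1. The Smad palindrome of Smad6 began 4 bases before the start site, and it was the only copy in the 41 windows of the 32 members that the table covers. Acvr2b, Id3 and Nodal held none of the letters searched in the stretch shown.

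Peaks were listed at 23 of the 48 members for ESC Oct1 (47.9%), against 35.2% of all protein-coding genes. For ESC Oct4 the number was 25 (52.1%, against 40.2%), for Oct1 at day 3 it was 20 (41.7%, against 24.6%) and for Oct1 at day 6 it was 33 (68.8%, against 41.5%). Members were thus listed more often than genes at large in every list. They were also longer, with a median of 28218 bp against 17169 bp, and the part of gene length in these shares was not tested. Among the 27 members of 20 kb or more, ESC Oct1 was listed at 13, ESC Oct4 at 14, day 3 Oct1 at 12 and day 6 Oct1 at 21. Those are 48.1%, 51.9%, 44.4% and 77.8%, against 43.4%, 47.9%, 29.2% and 47.9% of coding genes in the same length class. Among the 21 shorter members the numbers were 10, 11, 8 and 12, which are 47.6%, 52.4%, 38.1% and 57.1% against 28.3%, 33.7%, 20.7% and 36.1%. The ESC shares were thus near the background in the longer class and above it in the shorter class. The day 3 and day 6 shares were above it in both classes. With every list shortened to its 4867 highest-scored peaks, 12 members had an ESC Oct1 peak (16.3% of coding genes did), 13 an Oct4 peak (14.7%) and 19 a day 6 peak (30.2%). With the higher-scored 50% of each list, 8 members had a day 3 peak, against 15% of coding genes, so that the day 3 share came near its background, and 17 had a day 6 peak, against 25%.

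**Figure D1:**
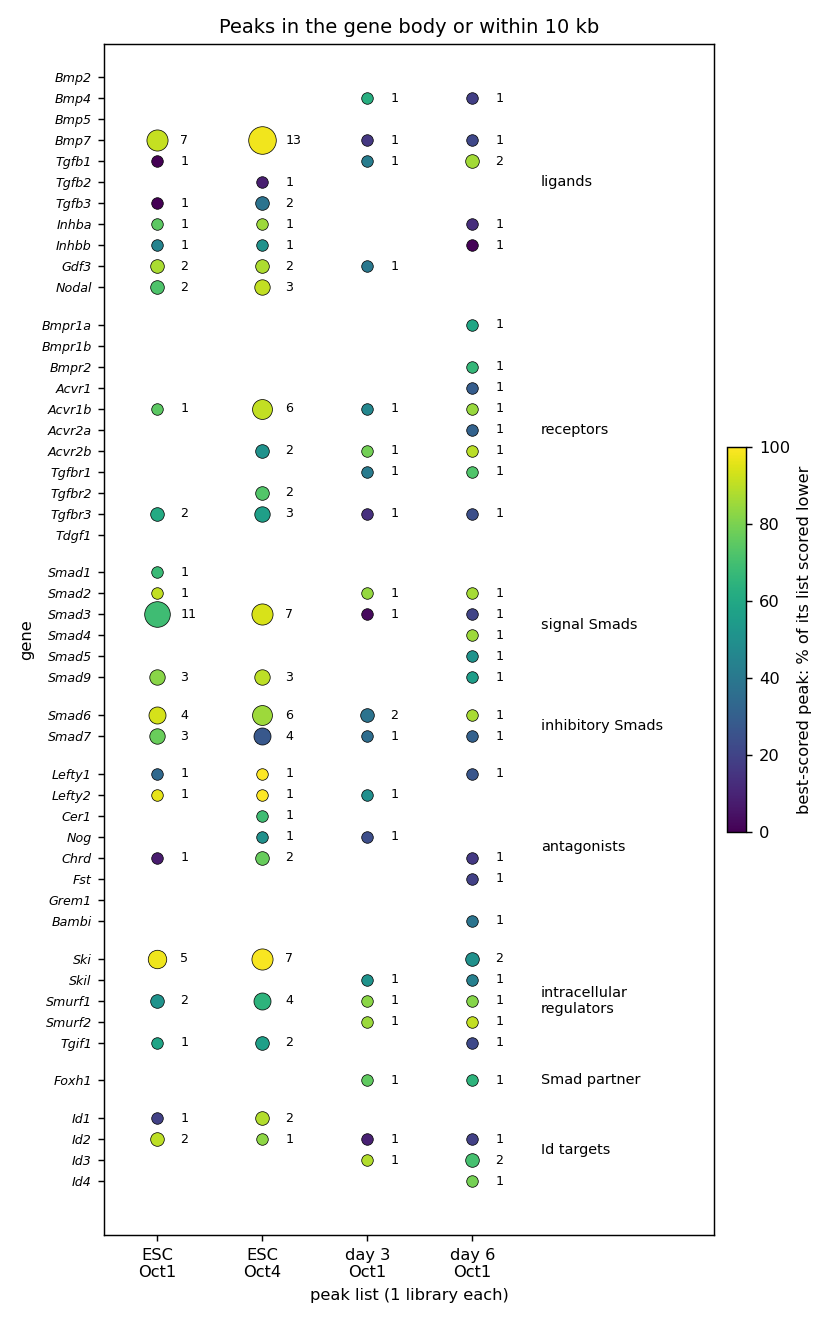
Peaks at each of the 48 genes (rows, ordered by role) in the 4 lists (columns, 1 library each). The area of a circle grows with the number of peaks, which is printed beside it, and the colour gives the percent of that list's peaks scored lower than the gene's best peak. Bmp7, Smad3 and Ski hold the large circles of the ESC columns, and 8 of 11 receptors have a day 6 circle.

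The windows of the members held 55 Oct1 and 78 Oct4 peaks in ESCs, then 21 Oct1 peaks at day 3 and 36 at day 6, and no peak was counted for 2 of them. The authors' score is a whole number for each peak without a unit, and it is used here only to rank peaks within their own list, with rank 1 the highest. The lists hold 17709 peaks (Oct1 in ESCs), 22817 (Oct4 in ESCs), 4867 (Oct1 at day 3) and 7758 (Oct1 at day 6). The median member peak outscored 44.7% of its list for ESC Oct1, 47.4% for Oct4, 42% at day 3 and 46.8% at day 6. Member peaks were therefore of middling score in all 4 lists. Of the peaks in the highest-scored 10% of a list, members held 7 of their 55 for ESC Oct1, 9 of 78 for Oct4, 0 of 21 at day 3 and 1 of 36 at day 6.

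Among the ligands, a peak was listed at 7 of 11 for ESC Oct1, 7 for Oct4, 4 at day 3 and 5 at day 6, beside 35.2%, 40.2%, 24.6% and 41.5% of all coding genes, and the day 6 count is near its background. Bmp7 (gene ID 12162), a BMP of the early embryo and kidney, stood apart with 7 ESC Oct1 and 13 ESC Oct4 peaks in or within 10 kb of its 72310 bp on chromosome 2. Of the 13 Oct4 peaks, 4 overlapped an Oct1 peak. The best pair lay 3958 bp (Oct1) inside the lower end of the gene at 172871641 to 172872300, with rank 1576 for Oct1 and 481 for Oct4. At least 13 Oct4 peaks were found at 0.525% of all coding genes. At the other end of Bmp7 an Oct1 peak appeared at day 3 (rank 4050) and was listed again at day 6 (rank 6070), low in both lists.

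Nodal (gene ID 18119) had ESC peaks only, 2 of Oct1 and 3 of Oct4. The Oct1 peak upstream, at chromosome 10, 61407921 to 61408490, lay 9767 bp before the start and overlapped an Oct4 peak (ranks 4651 and 8767). The best Oct4 peak of the gene (rank 2119) lay in its body, 5483 bp after the start, with no Oct1 peak on it. The other Oct1 peak (rank 8980) and the third Oct4 peak (rank 10366) lay beyond the gene, nearer to Eif4ebp2. Neither factor had a peak at the Nodal start region printed above.

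Gdf3 (gene ID 14562), a ligand of the same class that ESCs express, was the ligand with peaks at a gene end in ESCs. Both factors shared 2 sites there, with Oct1 ranks 2160 and 5000 and Oct4 ranks 2636 and 3339. The site at the gene end, chromosome 6, 122609561 to 122610160, was listed again for Oct1 at day 3 (rank 2886) and not at day 6. Inhba, which encodes the activin A chain, kept 1 site in its body in both ESC lists and at day 6 (ranks 4204, 3085 and 6712) and skipped day 3. Inhbb, the activin B chain, had an ESC Oct1 and an ESC Oct4 peak beyond its 3′ end (ranks 9106 and 10366), and at day 6 a peak 903 bp after its start that ranked 7693 of 7758.

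Bmp4 (gene ID 12159), the BMP used in the differentiation medium, had no ESC peak. It had 1 Oct1 peak in its body at day 3 (rank 1810) and again at day 6 (rank 6322), 3239 and 3094 bp after the start. Tgfb1 showed an Oct1 peak at all 3 times, but at the start of its neighbour B9d2, 6107 bp upstream of Tgfb1 in ESCs. That site ranked 17633 in ESCs, 2818 at day 3 and 1081 at day 6, and a second day 6 peak lay within Tgfb1 itself (rank 4682). Tgfb3 had 1 weak ESC Oct1 peak (rank 17633) and 2 Oct4 peaks (ranks 13504 and 21822), and Tgfb2 had 1 Oct4 peak (rank 20610). Bmp2 and Bmp5 had no peak in any list.

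More receptors had an Oct1 peak at day 6 than in ESCs or at day 3. In ESCs 2 of 11 had an Oct1 peak and 4 an Oct4 peak, beside 35.2% and 40.2% of all coding genes. None of these peaks stood within 1 kb of a start, where 7.13% and 6.31% of coding genes had one, so that none of 11 is near the background. At day 3, 4 had an Oct1 peak, 3 of them at the start, beside 24.6% and 14.4%. At day 6, 8 of 11 had an Oct1 peak, each gene exactly 1, beside 41.5% of coding genes. All 8 peaks stood within 1 kb of the start or, for Tgfbr3, whose start is not in the table, of a gene end. Start-site peaks at day 6 were found at 30.7% of all coding genes, so 8 of 11 stands beside that share, and with so few genes the share of receptors is imprecise. With only the higher-scored 50% of the day 6 list, or with all lists at equal length, 5 of 11 receptors had a start-site peak at day 6, beside 17.9% and 22.1% of coding genes at those settings.

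Tgfbr1 (gene ID 21812), the type I receptor for TGF-beta, was without a peak in either ESC list. Its start region carried an Oct1 peak at day 3 (47352921 to 47353670, rank 2841) and at day 6 (47352791 to 47353630, rank 2132), with midpoints 73 bp after and 12 bp before the start. Acvr1b (gene ID 11479), the type I receptor for activin and Nodal, had 1 ESC Oct1 peak 7428 bp after its start (rank 4204), on an Oct4 peak of rank 1968, and 5 further Oct4 peaks. Neither later list held that site, and a peak stood at the start instead, with rank 2602 at day 3 and 1185 at day 6 (chromosome 15, 101173711 to 101174580).

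The activin type II receptors also had start-site peaks. Acvr2b (gene ID 11481) had 2 Oct4 peaks and no Oct1 peak in ESCs, then an Oct1 peak at its start at day 3 (rank 1042) and at day 6 (rank 798), the latter at chromosome 9, 119401761 to 119402490. No other receptor peak at day 6 ranked higher. Acvr2a had a day 6 peak alone, 21 bp after its start (rank 5348).

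The BMP receptors Bmpr1a, Bmpr2 and Acvr1 likewise had no peak before day 6. The day 6 peaks lay 164 bp (Bmpr1a, rank 3154), 914 bp (Bmpr2, rank 2585) and 492 bp (Acvr1, rank 5476) upstream of the start. The Acvr1 peak was also within 1 kb of the start of Upp2 and lay nearer to that gene. Tgfbr3, a co-receptor that presents TGF-beta, had a site deep in its body in both ESC lists and at day 3 (ranks 10287, 16623 and 4114). At day 6 that site was not listed and a peak stood at 1 end of the gene (rank 5884). Tgfbr2, the type II receptor for TGF-beta, had 2 Oct4 peaks (ranks 5685 and 13504) and no Oct1 peak. Bmpr1b and the Nodal co-receptor Tdgf1 had no peak in any list.

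**Figure D2:**
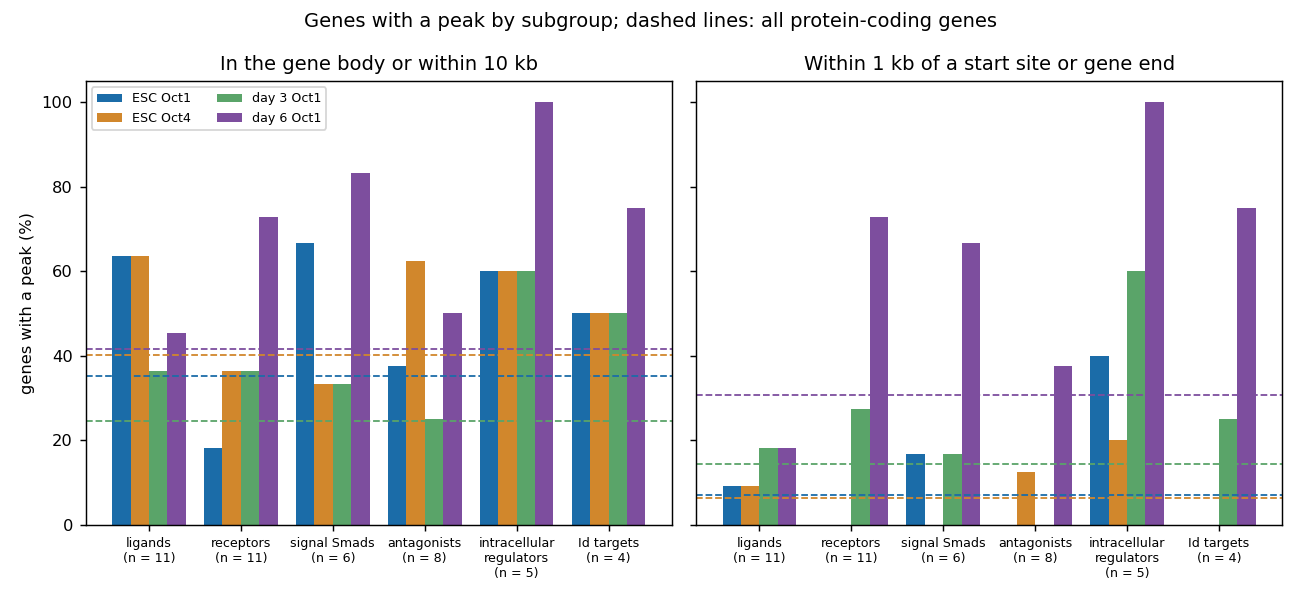
Percent of the genes of each role that have a peak under the 10 kb rule (left) and within 1 kb of a start site or gene end (right), by list, with the share of all protein-coding genes as dashed lines in the colour of the list. The groups are small (n under each name), Foxh1 and both inhibitory Smads are left out, and the right panel shows receptors at 0 in both ESC lists and at 8 of 11 genes at day 6.

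The Smads that carry the signal had Oct1 peaks at 4 of 6 genes in ESCs, 2 at day 3 and 5 at day 6, and Oct4 peaks at 2. The shares of all coding genes were 35.2%, 24.6% and 41.5% for Oct1 and 40.2% for Oct4, and 6 genes are too few to tell these counts from such shares. Smad2 (gene ID 17126), which carries Nodal and activin signals, had its Oct1 peak at the same place in all 3 lists. The peak covered the same end of the gene in ESCs (rank 1585), at day 3 (rank 773) and at day 6 (rank 1040), and outscored 91%, 84.1% and 86.6% of its list. No Oct4 peak was listed for Smad2. Smad3 (gene ID 17127), the other Smad of this branch, presented the reverse picture, with 11 ESC Oct1 and 7 ESC Oct4 peaks spread over its 111229 bp.

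No other member had as many ESC Oct1 peaks as Smad3, and 0.471% of all coding genes had 11 or more. They were mostly weak, with ranks from 5193 to 16752. The best-ranked Smad3 site was an Oct4 peak (chromosome 9, 63716071 to 63716570, rank 1252) on which an Oct1 peak of rank 5785 lay. Of the 11 Oct1 peaks, 1 lay beyond the gene and nearer to Aagab. At day 3 a single Smad3 peak was listed, in the body (rank 4732), on an ESC Oct1 site of rank 11711, and at day 6 the only peak lay 226 bp upstream of the start (rank 6189).

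Smad4 (gene ID 17128), the partner shared by both branches, had no peak in ESCs or at day 3. At day 6 it had 1 Oct1 peak at a gene end with rank 1139. Smad5, a BMP Smad, likewise had a day 6 peak alone, 28 bp after its start (rank 3764). The other BMP Smads differed from it. Smad1 had 1 ESC Oct1 peak beyond its 3′ end (rank 5705) and nothing else. Smad9 had 3 ESC Oct1 peaks, each on an Oct4 peak, of which the best lay at chromosome 3, 54797051 to 54797670 (ranks 3137 and 2252) and the one upstream of the gene lay nearer to Alg5. Its day 6 peak (rank 3442) stood at the start of Rfxap, beyond the 3′ end of Smad9.

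Both inhibitory Smads, which are feedback genes that block receptor signalling, had peaks in all 4 lists. Of all coding genes 9.18% did, and 2 genes are too few for a share. Smad6 (gene ID 17130) held 4 ESC Oct1 and 6 ESC Oct4 peaks in its body. The best Oct1 peak (chromosome 9, 63975741 to 63976650) had rank 1098, on an Oct4 peak of rank 11735, and lay 45864 bp from the start. At day 3, 2 body peaks were listed (ranks 3012 and 4771), the first of them on an ESC Oct1 site of rank 12839. At day 6 the only Smad6 peak was a broad one of 1510 bp over the start (64021811 to 64023320, rank 1009), which covered the palindrome shown above.

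Smad7 (gene ID 17131) had 3 ESC Oct1 peaks (ranks 4037, 14205 and 14748) and 4 ESC Oct4 peaks (ranks from 16543 to 20246). All 3 Oct1 peaks lay away from its ends. At day 3 and day 6 its single Oct1 peak lay at 1 gene end instead (ranks 3137 and 5364). Smad7 thus had its gene-end peak already at day 3, when the Oct1 peaks of Smad3 and Smad6 were in the gene body.

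**Figure D3:**
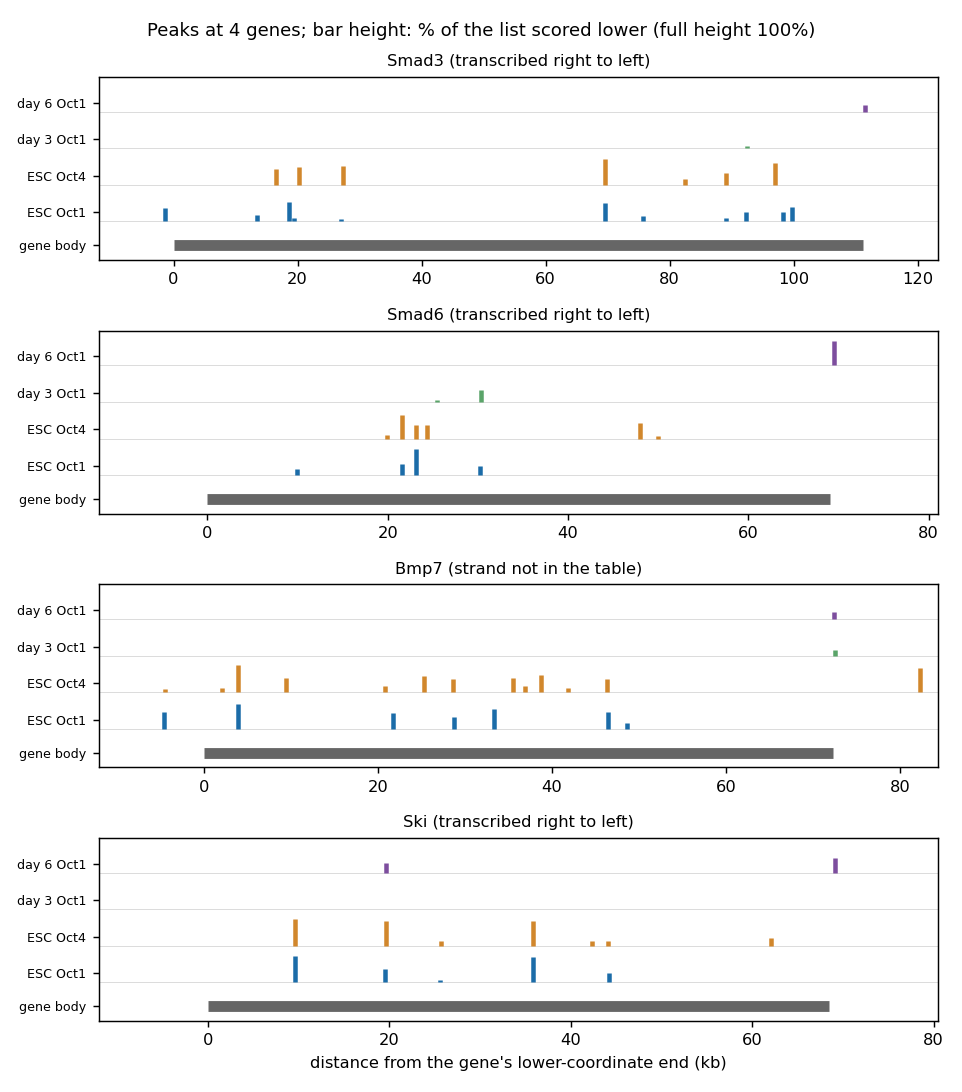
Peaks along Smad3, Smad6, Bmp7 and Ski in the 4 lists. The horizontal axis is the distance from the gene's lower-coordinate end in kb, the grey bar is the gene body, and each upright bar is a peak, drawn at its midpoint and as tall as the percent of its own list that scored lower. Most ESC peaks are spread through the bodies, with 11 for Oct1 at Smad3 and 13 for Oct4 at Bmp7, a few of them beyond the gene, and every gene has a day 6 peak at its right-hand end.

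Members that had an ESC Oct1 peak away from the start (or gene ends, where no start is in the table) and a day 6 Oct1 peak at it numbered 10 (20.8%), against 10.4% of all coding genes. They were Smad3, Smad6, Smad7, Bmp7, Acvr1b, Tgfbr3, Inhbb, Id2, Chrd and Ski. This count needs a peak in each list and moves with both backgrounds.

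All 5 regulators inside the cell had a day 6 peak within 1 kb of a start or, for Skil, of a gene end, beside 30.7% of all coding genes. Smurf1 and Smurf2 are ubiquitin ligases that mark Smads and receptors for breakdown, and Ski, Skil and Tgif1 are corepressors of Smads. Smurf2 (gene ID 66313) had no ESC peak, and its start region carried an Oct1 peak at day 3 (rank 735) and at day 6 (chromosome 11, 106919891 to 106921150, rank 716). This was the only member peak in the highest-scored 10% of the day 6 list.

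Smurf1 (gene ID 75788) had an Oct1 peak near its start at all 3 times, with rank 8029 in ESCs, 850 at day 3 and 1404 at day 6. Its 4 ESC Oct4 peaks lay elsewhere in the gene (ranks from 7562 to 22000), and a second ESC Oct1 peak (rank 14748) lay on one of these. Skil had an Oct1 peak at a gene end at day 3 (rank 2364) and day 6 (rank 4392) and none in ESCs. Tgif1 had 1 ESC Oct1 peak (rank 7291) and 2 ESC Oct4 peaks (ranks 9991 and 22498), all within 1 kb of a Tgif1 start. Its day 6 Oct1 peak (rank 6041) lay on the better Oct4 peak and not on the ESC Oct1 site.

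Ski (gene ID 20481) had the best-ranked ESC Oct1 peak of all members. It lay at chromosome 4, 155163161 to 155164190, in the gene body, 58860 bp from the start, with rank 442 and score 832, on an Oct4 peak of rank 236 and score 524. In all, Ski had 5 ESC Oct1 peaks, each on an Oct4 peak, and 7 Oct4 peaks. It was without a day 3 peak. Of its 2 day 6 peaks, 1 lay 725 bp upstream of the start (rank 3849), and the other was on an ESC site of both factors in the body (ranks 9800 for Oct1, 1837 for Oct4 and 5257 at day 6). Smad3, Bmp7 and Ski together held 23 of the 55 ESC Oct1 member peaks (41.8%) and 27 of the 78 Oct4 ones (34.6%), so totals over members in ESCs rest largely on these genes. Counted by gene, 6 members had at least 3 ESC Oct1 peaks and 10 had at least 3 Oct4 peaks (12.5% and 20.8%, against 7.95% and 11.9% of coding genes).

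The antagonists held the highest-ranked peaks of the whole set, and these belonged to Oct4. Lefty1 (gene ID 13590) and Lefty2 (gene ID 320202) are neighbouring genes on chromosome 1 that encode secreted inhibitors of Nodal and are themselves Nodal targets. The Oct4 peak beside Lefty1 (180933191 to 180934030) had rank 56 and score 948, and the one beside Lefty2 (180888291 to 180889120) had rank 64 and score 898. They outscored 99.8% and 99.7% of the Oct4 list and lay 1412 and 4403 bp from the nearer gene end.

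Oct1 differed between the pair. At Lefty2 an ESC Oct1 peak lay on the Oct4 site with rank 677 and score 595, and the site was listed for Oct1 again at day 3 (rank 2449) and not at day 6. At the Lefty1 Oct4 site no Oct1 peak was listed at any time. The Oct1 peaks counted for Lefty1, in ESCs (rank 11664) and at day 6 (rank 5670), lay nearer to Tmem63a, the latter at its start.

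Cer1, another secreted Nodal and BMP inhibitor, had 1 ESC Oct4 peak near its start (rank 6596) and no Oct1 peak. Nog, which encodes the BMP antagonist noggin, had 1 site 6221 bp from a gene end, listed for Oct4 in ESCs (rank 11257) and for Oct1 at day 3 (rank 3688). Chrd, which encodes chordin, had an Oct1 peak on an Oct4 peak beyond its 3′ end in ESCs (ranks 15674 and 4894) and a day 6 Oct1 peak 82 bp upstream of a start (rank 6453). A further ESC Oct4 peak (rank 6596) lay upstream of Chrd and nearer to Thpo. Fst, which encodes follistatin, and Bambi, a pseudoreceptor, had day 6 peaks alone, at a gene end (ranks 6242 and 4782). Grem1 had no peak.

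Foxh1, the forkhead factor that guides Smad2 and Smad4 to DNA, had Oct1 peaks that both lay at other genes. They stood, at day 3 (rank 1183) and day 6 (rank 2743), at the starts of Cyhr1 and Kifc2, 7639 and 7654 bp from Foxh1.

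The Id genes encode inhibitors of differentiation and are classic BMP targets. Id3 (gene ID 15903) had no ESC peak, and its start region held the best-ranked day 3 peak of all members, at chromosome 4, 136143471 to 136144020, with rank 555. At day 6 the site had rank 2272, and a second peak (rank 3676) lay beyond the gene. Id4 had a day 6 peak alone, 161 bp upstream of its start (rank 1628). Id2 had 2 ESC Oct1 peaks beyond its 3′ end, of rank 1704 (on an Oct4 peak of rank 3546) and of rank 7273. The second of these sites was listed again at day 3 (rank 4394), and at day 6 a peak lay 123 bp upstream of the start (rank 6247). Id1 had ESC peaks only, 1 of Oct1 (rank 14205) and 2 of Oct4 (ranks 2601 and 14872).

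Across time, 10 members (20.8%) had an Oct1 peak in ESCs, at day 3 and at day 6, against 11.2% of coding genes. They were Smad2, Smad3, Smad6, Smad7, Bmp7, Acvr1b, Tgfb1, Tgfbr3, Id2 and Smurf1. With the higher-scored 50% of each list 2 members were left in this class (5.07% of coding genes were), and with lists of equal length 3 (5.4%). Having a peak at all 3 times did not mean having the same peak. At only 3 of these genes, Smad2, Smurf1 and Tgfb1 (there at the B9d2 start), did 1 ESC peak overlap a peak of both later lists. Those 3 are 5.45% of the 55 ESC Oct1 member peaks (interval 1.14 to 15.1), against 3% of the whole ESC Oct1 list. Intervals are exact Clopper-Pearson 95% intervals and cover only the counting of peaks, and peaks at the same gene are not independent.

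Of the members with a peak in all 4 lists there were 8 (16.7%, against 9.18%), and no single site at a member was listed in all 4. That is 0 of 55 ESC Oct1 member peaks (interval 0 to 6.49), against 1.35% of the whole ESC Oct1 list, and so near the background. In both ESC lists 20 members had a peak (41.7%, against 28.9%). Of the ESC Oct1 member peaks, 32 of 55 (58.2%, interval 44.1 to 71.3) overlapped an Oct4 peak, against 59.1% of that whole list. A further 17 (30.9%, interval 19.1 to 44.8) overlapped no peak of another list, against 36%. Both list shares lie within the intervals for the members. With the higher-scored 50% of each list, 12 of 26 member peaks (46.2%, interval 26.6 to 66.6) overlapped an Oct4 peak, against 48% of that ESC Oct1 list. In lists of equal length it was 9 of 13 (69.2%, interval 38.6 to 90.9), against 37.3% of the shortened ESC Oct1 list. That share lies just below its interval, and at no other setting did the list share lie outside the interval.

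An Oct1 peak in ESCs and at neither later time was found at 4 members (8.33%, against 12.7%), namely Smad1, Tgfb3, Nodal and Id1. An ESC peak with at least 1 later peak was found at 19 (39.6%, against 22.6%). Members with a later Oct1 peak and none in ESCs numbered 17 (35.4%, against 23.0%). These were Smad4, Smad5, Bmp4, Foxh1, Id3, Id4, Nog, Fst, Skil, Smurf2, Bambi and the receptors Bmpr1a, Bmpr2, Acvr1, Acvr2a, Acvr2b and Tgfbr1, and with a window of 50 kb 9 members were in this class, beside 14.9% of coding genes. No Oct1 peak at any time was found at 8 members (16.7%, against 41.8%), namely Bmp2, Bmp5, Bmpr1b, Tgfb2, Tgfbr2, Tdgf1, Cer1 and Grem1. Of these, Bmp2, Bmp5, Bmpr1b, Tdgf1 and Grem1 were without a peak in any list (10.4%, against 36.5%).

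Day 3 and day 6 shared many sites. Of the 21 day 3 member peaks, 13 (61.9%, interval 38.4 to 81.9) overlapped a day 6 peak, against 58.5% of the day 3 list. They lay at Smad2, Smad7, Bmp4, Bmp7, Acvr1b, Acvr2b, Tgfb1, Tgfbr1, Foxh1, Id3, Skil, Smurf1 and Smurf2. By gene, 17 members had a peak at both later times (35.4%, against 20.6%), 16 at day 6 and not at day 3 (33.3%, against 20.9%) and 3 at day 3 and not at day 6 (6.25%, against 4.04%), the last being Gdf3, Lefty2 and Nog. Of the 36 day 6 member peaks, 20 (55.6%, interval 38.1 to 72.1) overlapped no peak of another list, against 52.5%. Day 6 peaks on an ESC Oct1 peak numbered 5 (13.9%, against 15.2%), at Smad2, Tgfb1, Inhba, Ski and Smurf1. Of the ESC Oct1 member peaks, 9 (16.4%, interval 7.77 to 28.8) overlapped a day 3 peak, against 8.88%, a list share that lies within the interval.

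**Figure D4:**
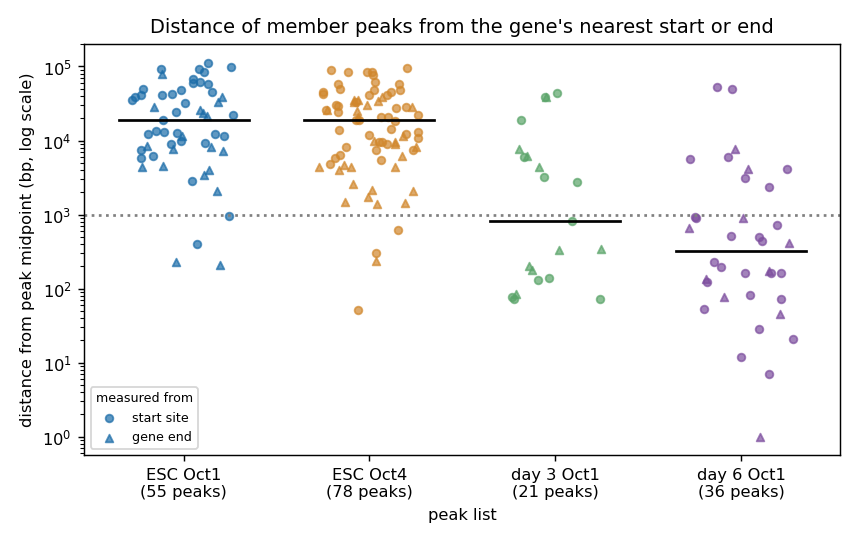
Distance from the midpoint of every member peak to the nearest start site of its gene (circles) or, where the table gives none, to the nearer gene end (triangles), on a log axis in bp. Black lines are medians and the dotted line is 1 kb. Medians are 18859 bp for ESC Oct1, 18642 bp for ESC Oct4, 810 bp for day 3 and 317 bp for day 6, where most points lie under the line.

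The position of peaks was counted by gene, from the start site or, for the 16 members without one in the table, from either gene end. Within 1 kb lay an ESC Oct1 peak at 4 members (8.33%, against 7.13% of coding genes), namely Smad2, Gdf3, Smurf1 and Tgif1. An ESC Oct4 peak lay there at 3 (6.25%, against 6.31%), Gdf3, Cer1 and Tgif1. At day 3 there were 11 (22.9%, against 14.4%) and at day 6 there were 27 (56.2%, against 30.7%). The ESC counts were therefore at the background and the day 6 count above it. The day 3 count was higher than its background by less, and no interval was computed for it. By peak, 86.1% of the 36 day 6 member peaks had their midpoint within 1 kb of a start site of some gene (or a gene end, where the table gives no start), against 78% of the day 6 list, and at day 3 it was 61.9% against 57%. In ESCs it was 9.09% against 8.26% for Oct1 and 5.13% against 5.87% for Oct4. Each share of member peaks was thus near that of its own list, so that the difference between ESCs and day 6 in where peaks lie was one of the whole lists and not of these genes alone.

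Base composition moved with the day 3 and day 6 peaks. Of the 41 member start windows, 18 (of 16 genes) lay under a day 6 peak, with a median GC of 73.8%, and the 23 under none had 56.4%. Over the whole table the windows under a day 6 peak had 64.8%. Under a day 3 peak the medians were 74.8% for 5 member windows and 65.2% over the whole table. Among windows with a GC of 60% or more, 17 of 26 member windows were under a day 6 peak (65.4%), against 55.3% of all 9178 such windows. Below 60% it was 1 of 15 (6.67%), against 8.25%. The part of base composition in the day 3 and day 6 peaks was not tested.

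Motifs were searched on both strands of the full windows, from 250 bases before to 50 after each start, and the motifs do not contain each other. The octamer ATGCAAAT, to which Oct1 and Oct4 bind, was in none of the 41 member windows and in 1.74% of all windows. Over all genes it was in 6.19% of the windows under an ESC Oct1 peak, 3.58% of those under a day 3 peak and 1.44% of those under a day 6 peak. The MORE-type palindrome, at which POU factors can bind as dimers, was in none of the member windows and in 3 of all 32851. The Smad element CAGACA was in 10 member windows (24.4%, against 21% of all), among them those of Smurf1, Smurf2, Chrd and Tgif1 under a day 6 peak. Those are 4 of 18 member windows under a day 6 peak (22.2%), against 12.5% of all windows under such a peak.

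The GC-rich Smad element GGCGCC was in 13 member windows (31.7%, against 11.9% of all). The median GC was 64% over the 41 member windows and 52.4% over all windows. Under day 6 peaks the element was in 9 of 18 member windows (50%), at Acvr1b, Bmpr1a, Chrd, Id2, Id4, Smad5, Smurf2 and Tgfbr1, against 27.4% of all windows under a day 6 peak. Overlapping windows of Smad5 hold the same copy, which is counted once for each of them, here and among the 13. The median GC of the 18 member windows was 73.8%, against 64.8% for all windows under a day 6 peak. The part of GC in either count was not tested. The Smad palindrome GTCTAGAC was in 1 member window, that of Smad6, and in 0.213% of all. A match describes letters in a window and not a bound site.

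A further 55 genes of the pathway that are not among the 48 were listed by function, such as other Gdf and Bmp ligands, latent TGF-beta binding proteins and coactivators. Of these, 24 were listed for Oct1 in ESCs (43.6%), 32 for Oct4 (58.2%), 21 for Oct1 at day 3 (38.2%) and 25 at day 6 (45.5%). Within 1 kb of a start or end, 16 had a day 6 peak (29.1%). The ESC and day 3 shares lay near those of the 48 genes, while the day 6 shares lay near the background of all coding genes.

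The 10 kb limit bears on a few genes. The outermost peaks inside it had gaps from 8781 bp (Id1, Oct4) to 9710 bp (Bmp7, Oct4) between peak edge and gene, and the first peaks outside lay at 10452 bp (Acvr1b, ESC Oct1), 10509 bp (Foxh1, day 6) and 10573 bp (Inhbb, Oct4). These genes had another peak in the same list, so none of them gained or lost its place there. Id2 was counted for Oct4, and so among the 8 genes in all 4 lists, by a single peak with a gap of 9539 bp. Tgfb1 was not counted for Oct4, although an Oct4 peak of rank 326 lay 13664 bp away. An ESC Oct1 peak of rank 1029 lay 13634 bp from Tgfb1, also outside the limit, while the ESC Oct1 peak counted for it had rank 17633. Chrd was not counted at day 3, with Oct1 peaks 13305 and 14875 bp away (ranks 3489 and 1581).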

How the data were processed

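Peaks of 4 ChIP-seq libraries (ESC Oct1, ESC Oct4, day 3 Oct1 and day 6 Oct1, 1 library each) were used. The deposited lists give chromosome, start, end, name and a score per peak, which the authors assigned as a whole number without a unit. The submitters' processing notes name the build mm10 and the tool Novoalign 3.8.2. The peak caller, its threshold and the control are not given in the sources used here, and each deposited list belongs to 1 library. Depth is unknown, since the lists hold no read counts, so numbers of peaks in different lists may reflect depth and threshold.

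Genes and start windows came from RefSeq tables of GRCm38.p6. The gene table gives no exons, so exonic and intronic peaks were not separated. Start sites were taken from the start windows, which matched 32 of 48 members. The 16 others (Smad2, Smad4, Smad7, Bmp2, Bmp7, Tgfb3, Tgfbr3, Gdf3, Lefty1, Lefty2, Foxh1, Id1, Nog, Fst, Skil and Bambi) were measured from the nearer gene end. Overlap meant at least 1 bp. Counts were made in Python 3.11.15 (numpy 2.4.6, pandas 2.3.3), intervals in scipy 1.17.1 and figures in matplotlib 3.10.9. The pair counts of bedtools 2.31.1 were equal, and the assignment of peaks to genes was tested on simulated data. Members described singly were those with a peak in the top 10% of a list, in all 4 lists, or only at a later time for Oct1, or with 3 or more peaks in a list, and the others, Gdf3 among them, are given by role with fewer values so that every member is accounted for. Members and lists were chosen with earlier results of these data known. The alternatives were other windows (0, 5 and 50 kb), the higher-scored 50% of each list, lists of equal length, the nearest gene only, the peak midpoint, overlap of at least 50% each way and a 5 kb start region. Peaks were read 1-based, as a genome browser shows them.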

Additional observations from a re-analysis of the deposited data

How the results depend on the processing

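Of 126 alternative values for 23 results, 93 stayed within 1.5 times of a count or distance or within the interval of a share, and 33 did not. Shorter lists and narrower windows lower counts by construction, and a wider window raises them. The share of all coding genes at the same setting is given after "of all". With the gene body alone, 14 members had an ESC Oct1 peak (23.9% of all). With a window of 50 kb the peaks numbered 127 for ESC Oct1, 171 for Oct4, 40 at day 3 and 63 at day 6. In that window 38 members had an Oct4 peak (62.5% of all), 23 an Oct1 peak at all 3 times (30.1%) and 9 only later (14.9%). With the higher-scored 50% of each list, 26, 38, 8 and 18 peaks were left, and 8 members had a day 3 peak (15% of all), 17 a day 6 peak (25%) and 2 an Oct1 peak at all 3 times (5.07%). The day 3 share at start sites was then 87.5% (74.2% of that list), and day 6 start-site peaks stood at 14 members and 5 receptors (17.9% of all). With every list shortened to 4867 peaks, 12 members had an ESC Oct1 peak (16.3% of all), 13 an Oct4 peak (14.7%), 19 a day 6 peak (30.2%) and 3 an Oct1 peak at all 3 times (5.4%), on 13, 18 and 21 peaks. Start-site peaks then stood at 2 members for ESC Oct1 (4.07% of all) and, at day 6, at 16 members and 5 receptors (22.1%). With 5 kb as the start region, the ESC shares were 21.8% for Oct1 (16.5% of the list) and 23.1% for Oct4 (15.9%), and 8 members had an ESC Oct1 peak there (12.7% of all). The counts of start-site members and receptors and of members with only later peaks were added after the data were seen. So were all median distances, both over all member peaks and without Smad3, Bmp7 and Ski (9155 bp for ESC Oct1 and 10868 bp for Oct4). No paired analysis was possible because each group had 1 library and no result came from a test.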
